A study of Mus musculus with 11 samples.

Results

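The small leucine-rich proteoglycans are secreted proteins of the extracellular matrix, and 10 of their genes were listed for description in otospheres, cochlear sensory epithelium (CSE) and embryonic stem cells (ESCs): Dcn (decorin), Bgn (biglycan), Aspn (asporin), Fmod (fibromodulin), Lum (lumican), Kera (keratocan), Omd (osteomodulin), Prelp, Epyc (epiphycan) and Ogn (osteoglycin). Probes were assigned to these genes through the transcript accession that the array design gives each probe. Of the 10 listed genes, 9 had a probe, 1 probe each, and all 9 probes passed the filter on dim probes. Prelp was not analysed here. In all, 20284 genes were named in this way and 18565 of them had a probe that passed the filter. The genes were listed by family and not by a rule on measured values, but earlier results of these data were known at the time.

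Otospheres are floating spheres grown from dissociated cells of the cochlea, here from ICR mice at postnatal day 1, with the cochleae of 10 animals (20 cochleae) pooled in a preparation. They were cultured with bFGF (10 ng/ml), IGF1 (50 ng/ml) and heparan sulfate, passaged 1 time, and filtered to keep solid spheres. CSE was taken fresh from ICR mice of the same age, again with 20 cochleae in a preparation, after the spiral ligament and stria vascularis had been removed. The ESCs were of line G4-2 (ES1) and line D3 (ES2), both at passage 13 and grown with serum and LIF without feeder cells, so that the spread within this group is also the difference between lines. The labels name no genetic change in any group. Cy3-labelled RNA was hybridized to 11 single-colour arrays on 2 slides: ES1, OS1 to OS3, CSE1 and CSE2 on slide 1, and ES2, OS4 to OS6 and CSE3 on slide 2. The arrays OS1 and OS2 differed by less than the noise between spots, as did OS4 and OS5, and each pair was counted as 1 sample (OS1+OS2 and OS4+OS5). This left 4 otosphere, 3 CSE and 2 ESC samples. The labels do not say that these came from separate preparations, so the p-values measure only the spread between these samples, which may be technical. Between 55.1% and 71.6% of the spots of an array carried the scanner's flag for a signal well above background, and no spot was saturated.

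Proteoglycans of this family share a curved domain of leucine-rich repeats, with which most of them bind fibrillar collagens and set the width and spacing of the fibrils. Class I (Dcn, Bgn, Aspn) is known for chondroitin or dermatan sulfate chains, which asporin lacks, class II (Fmod, Lum, Kera, Omd, Prelp) mainly for keratan sulfate, and class III (Epyc, Ogn) for epiphycan and osteoglycin. Several members also bind growth factors such as TGF-beta and receptors such as EGFR or the Toll-like receptors. In the cochlea, epiphycan is known from supporting cells, and decorin and lumican are typical products of fibroblasts in connective tissue.

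Most of these genes lie beside one another. In the RefSeq gene order of assembly GRCm38.p6, Dcn, Lum, Kera and Epyc follow each other on chromosome 10 with 0 protein-coding genes between them, and so do Ecm2, Aspn, Omd and Ogn on chromosome 13 and Optc, Prelp and Fmod on chromosome 1. Bgn lies on the X chromosome. RefSeq promoter sequences (250 bases before to 50 after a start) were matched for 8 of the 10 genes, all but Dcn and Lum, and 5 of them are printed here because they set genes with strong signal in the cochlear samples (Epyc, Ogn) beside neighbours at or near the background (Kera, Omd, Aspn). All 6 stretches are on the plus strand of GRCm38.p6. They were searched on both strands for the TATA box, spelled TATAAA, for the CCAAT box, for the GC box, spelled GGGCGG, for the AP-1 site, spelled TGANTCA, and for the core of the SOX motif, spelled AACAAT. Capitals mark the matches, and a match on the opposite strand shows as the reverse complement of the motif, for example ATTGTT for the SOX core. The first start of Epyc is at chr10:97643818-97644117 and the second at chr10:97646853-97647152. Kera is at chr10:97606955-97607254, Ogn at chr13:49607765-49608064, Omd at chr13:49582212-49582511 and Aspn at chr13:49544193-49544492.
Epyc, first start: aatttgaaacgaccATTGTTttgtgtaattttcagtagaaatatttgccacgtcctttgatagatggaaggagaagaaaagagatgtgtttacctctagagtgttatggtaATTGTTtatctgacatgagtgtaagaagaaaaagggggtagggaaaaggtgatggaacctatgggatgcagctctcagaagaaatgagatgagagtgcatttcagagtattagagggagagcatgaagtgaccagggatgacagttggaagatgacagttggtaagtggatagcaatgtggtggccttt
Epyc, second start: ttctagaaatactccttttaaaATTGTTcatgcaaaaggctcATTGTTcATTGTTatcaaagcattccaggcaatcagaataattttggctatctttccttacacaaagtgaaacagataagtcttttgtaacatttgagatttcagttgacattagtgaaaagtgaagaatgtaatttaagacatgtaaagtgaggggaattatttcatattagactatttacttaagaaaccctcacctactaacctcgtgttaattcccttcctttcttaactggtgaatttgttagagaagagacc
Kera: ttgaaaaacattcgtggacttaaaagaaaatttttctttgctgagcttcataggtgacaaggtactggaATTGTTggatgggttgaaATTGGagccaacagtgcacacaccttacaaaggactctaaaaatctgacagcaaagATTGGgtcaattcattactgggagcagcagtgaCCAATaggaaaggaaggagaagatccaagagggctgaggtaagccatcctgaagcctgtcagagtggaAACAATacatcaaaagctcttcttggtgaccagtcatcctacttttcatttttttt
Ogn: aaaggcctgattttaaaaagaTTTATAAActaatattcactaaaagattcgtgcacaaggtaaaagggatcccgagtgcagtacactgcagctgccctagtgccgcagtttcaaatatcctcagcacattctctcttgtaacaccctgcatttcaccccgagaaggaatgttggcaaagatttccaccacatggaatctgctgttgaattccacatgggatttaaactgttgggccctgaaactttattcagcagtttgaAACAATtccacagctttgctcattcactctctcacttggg
Omd: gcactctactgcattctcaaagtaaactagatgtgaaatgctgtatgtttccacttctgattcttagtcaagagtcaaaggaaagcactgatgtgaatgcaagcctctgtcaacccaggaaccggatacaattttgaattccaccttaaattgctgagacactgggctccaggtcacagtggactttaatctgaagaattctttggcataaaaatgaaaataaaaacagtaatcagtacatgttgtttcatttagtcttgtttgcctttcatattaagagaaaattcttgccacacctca
Aspn: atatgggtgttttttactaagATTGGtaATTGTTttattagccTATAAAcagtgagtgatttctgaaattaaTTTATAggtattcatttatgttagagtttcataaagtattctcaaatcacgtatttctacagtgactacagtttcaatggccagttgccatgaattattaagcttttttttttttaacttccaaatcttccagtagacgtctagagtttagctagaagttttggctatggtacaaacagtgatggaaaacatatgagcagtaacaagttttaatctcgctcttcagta

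The SOX core was found 2 times before the first start of Epyc, at positions -236 and -139 from the start, and 3 times before the second start, at -228, -208 and -201. None of the other 4 motifs was found in either stretch. Kera had 2 matches of the SOX core, and Ogn and Aspn had 1 each. The TATA box matched 2 times in Ogn, where the matches on the opposite strands overlap, and 2 times in Aspn. The CCAAT box matched 3 times in Kera and 1 time in Aspn, and the stretch of Omd held none of the 5 motifs. Of 32851 RefSeq promoter stretches of the same length, 3521 held the SOX core, 13.6% the TATA box, 37.4% the CCAAT box, 35.7% the GC box and 7.81% the AP-1 site. A match describes the letters and is not a binding site. Both Epyc and Kera held the SOX core, while the probe of Epyc was well above background on all 9 cochlear arrays and that of Kera on 1 of them.

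Values are normalized log2 signals, on which 1 unit is a doubling, and signals of different probes are not compared with each other. The members fell into 3 patterns. Dcn, Lum, Epyc and Ogn had strong signals in otospheres and CSE and little or none in ESCs. Aspn, Omd and Fmod were higher in CSE than in both otospheres and ESCs. Bgn and Kera did not pass the test in any comparison, Bgn with a clear signal in all groups and Kera at the background in nearly all arrays. In the plot of signals by sample these patterns can be read gene by gene.

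**Figure D1:**
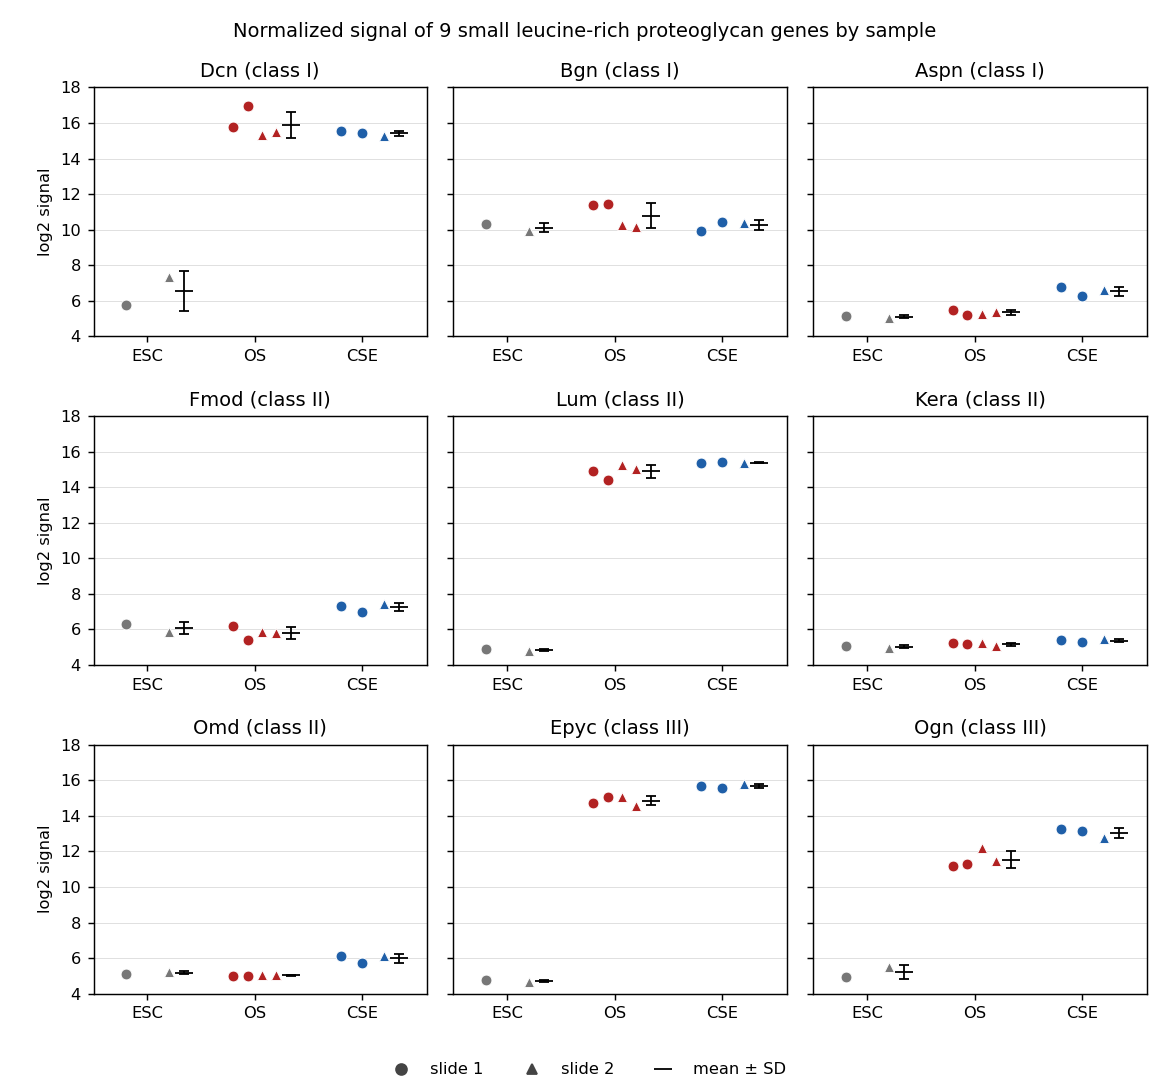
Normalized log2 signal (y axis) of 9 small leucine-rich proteoglycan genes in ESCs (2 samples), otospheres (OS, 4 samples) and CSE (3 samples), with circles for slide 1, triangles for slide 2 and black bars for the mean ± SD. Dcn, Lum, Epyc and Ogn lie far above the ESC samples in all 7 cochlear samples, whereas Kera stays between 4.96 and 5.44 in all samples.

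For each comparison a limma model of the 3 group means was fitted to all 47997 kept probes, with Benjamini-Hochberg adjustment over all of them and a threshold of 0.05. Between otospheres and CSE, 0 members were higher and 5 were lower (Epyc, Ogn, Omd, Fmod and Aspn) in otospheres, and 4 did not pass the test. Over all probes, 4.84% were called higher and 6.19% lower in otospheres. Over the 18565 named genes, counted like the members by 1 probe each, 7.17% were higher and 10.3% lower. In bulk samples such as these, fewer cells of a type and less RNA in each cell cannot be told apart. The median difference was -0.83 over the 9 members and 0.02 over all kept probes. Against ESCs, 4 members were higher in otospheres and 7 in CSE, and 0 were lower in either. The background of these comparisons over all probes was 12.1% higher and 15.6% lower for otospheres, and 13.2% higher and 15.6% lower for CSE. Over the named genes it was 18.4% higher and 20.4% lower for otospheres, and 20.9% higher and 20% lower for CSE. Both comparisons share the same ESC samples. A probe that is dim in ESCs had to be bright in a cochlear group to pass the filter, so the counts against ESCs support nothing by themselves. Counts between otospheres and CSE, here and in the lists below, have the same limit where a probe is dim in one group. Omd and Aspn were well above background only on the 3 CSE arrays and may have passed the filter through CSE alone. The count of 5 therefore supports nothing by itself either. Without CSE replicate 1, 3 of the 5 members remained past the threshold, Omd, Fmod and Aspn.

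Among class I genes, Dcn encodes decorin, which binds collagen fibrils and TGF-beta. Its signal was 15.78 in OS1+OS2, 16.93 in OS3, 15.31 in OS4+OS5 and 15.51 in OS6, against 15.56, 15.42 and 15.29 in CSE1 to CSE3 and 5.74 and 7.36 in ES1 and ES2. OS3 stood above all other samples, and the other otosphere samples lay in the range of CSE or just above it. Otospheres exceeded CSE by 0.46 (standard error 0.46, 95% interval -0.58 to 1.50), which did not pass the test (limma, adjusted p = 0.688). Both exceeded ESCs, otospheres by 9.33 (limma, adjusted p = 6.67e-06) and CSE by 8.87 (limma, adjusted p = 1.20e-05). The pair of ESC lines differed by 1.62, and Dcn was well above background on both of their arrays.

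Bgn encodes biglycan, the closest relative of decorin, which can also act as a ligand of Toll-like receptors. Its signal was 11.38 in OS1+OS2 and 11.42 in OS3, but 10.25 in OS4+OS5 and 10.12 in OS6. In CSE it was 9.91, 10.42 and 10.39, and in ESCs 10.32 and 9.92. The otosphere samples of slide 1 were thus the highest of all, and those of slide 2 lay in the range of CSE and ESCs. Otospheres minus CSE was 0.55 (standard error 0.36, limma adjusted p = 0.461), 1.23 on slide 1 and -0.20 on slide 2. The slide difference of -1.43 had an unadjusted p of 0.00792 and an adjusted p of 0.791 in limma with an interaction of group and slide. Over all probes, 0 passed the adjusted threshold in that test and 2914, or 6.07%, had an unadjusted p under 0.05. Since OS1 to OS3 lie on one slide and OS4 to OS6 on the other, differences between these sets of otospheres and between slides cannot be told apart. CSE and ESCs differed by 0.12 in Bgn (limma, adjusted p = 0.878), which leaves Bgn with no measured order among the groups.

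Aspn encodes asporin, known as an inhibitor of TGF-beta in cartilage. It was 6.76, 6.25 and 6.61 in CSE, 5.19 to 5.51 in otospheres and 5.16 and 5.05 in ESCs, and it was well above background only on the 3 CSE arrays. Against otospheres CSE was 2.29-fold higher (limma, adjusted p = 0.00259) and against ESCs at least 2.23-fold higher (limma, adjusted p = 8.63e-04). For such a bound the dim group was given, array by array, the smallest signal that any probe flagged well above background had there. Where the probe in question had a larger signal, that was used instead. The brighter group's mean was divided by this value. Every fold given as a bound allows for the background only, and not for the spread between samples. For Aspn the 95% interval of the log2 difference ran from -1.58 to -0.81 in otospheres minus CSE. In CSE minus ESCs it ran from 0.98 to 1.90. The raw intensities were low even in CSE, at 80 to 116.5 against 29.5 to 52 in otospheres.

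Of the class II genes, Lum encodes lumican, which spaces collagen fibrils in the cornea and in connective tissue. Its signal was 14.90 in OS1+OS2, 14.39 in OS3, 15.24 in OS4+OS5 and 15.05 in OS6, and 15.38, 15.42 and 15.34 in CSE. Every otosphere sample lay below every CSE sample, though the highest otosphere value was close to the lowest CSE value. The difference of -0.48 (standard error 0.21) did not pass the test (limma, adjusted p = 0.207), and its 95% interval ran from -0.95 to -0.02. On the ESC arrays, with raw intensities of 36 and 39, Lum was not well above background. It was at least 729.6-fold higher in otospheres (limma, adjusted p = 7.62e-08) and at least 1021-fold higher in CSE (limma, adjusted p = 8.66e-08).

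Fmod encodes fibromodulin, which guides the cross-linking of collagen. It was 7.32, 6.98 and 7.44 in CSE, 6.19, 5.39, 5.87 and 5.81 in the otosphere samples in the order given for Lum, and 6.30 and 5.84 in ESCs. CSE lay above all other samples, and otospheres overlapped with ESCs. Otospheres were 2.70-fold lower than CSE, a log2 difference of -1.43 (standard error 0.23, limma adjusted p = 0.00436), and CSE exceeded ESCs by 1.18 (limma, adjusted p = 0.0105, and 0.0737 without ESC replicate 2). Omd encodes osteomodulin, a keratan sulfate proteoglycan known from mineralizing bone. Its signal was 6.13, 5.71 and 6.14 in CSE and 4.98 to 5.08 in otospheres, whose arrays all had it at background. With the bound used for Aspn, CSE was 1.895-fold above otospheres (limma, adjusted p = 0.00482) and 1.53-fold above ESCs (limma, adjusted p = 0.0104). These folds do not allow for the spread between samples. The 95% interval of the log2 difference ran from -1.32 to -0.61 in otospheres minus CSE. In CSE minus ESCs the difference was 0.81 (95% interval 0.39 to 1.24), and 0.75 without ESC replicate 1, which leaves 1 ESC sample. The call of Omd against ESCs was lost in 2 of 18 alternatives. Among them was replicate number as a block with every array as a separate sample (limma, adjusted p = 0.0617).

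Kera encodes keratocan, a proteoglycan of the corneal stroma. It lies between Lum and Epyc on chromosome 10. Its probe, spotted 10 times on each array, was well above background on 1 of the 3 CSE arrays and on 0 otosphere and 0 ESC arrays, with signals of 5.05 to 5.24 in otospheres and 5.29 to 5.44 in CSE. The difference of -0.21 did not pass the test (limma, adjusted p = 0.468). When the processed intensities were scaled to the 75th percentile instead, it was -1.13 with an adjusted p of 0.0264 in limma.

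The class III genes were lower in otospheres than in CSE. Epyc encodes epiphycan, a dermatan sulfate proteoglycan known from growth plate cartilage and from supporting cells of the cochlea. Its signal was 14.72 in OS1+OS2, 15.04 in OS3, 15.05 in OS4+OS5 and 14.54 in OS6, against 15.68, 15.57 and 15.76 in CSE. The groups did not overlap, and within them the samples stayed within 0.51 in otospheres and 0.20 in CSE. Otospheres were 1.78-fold lower, a log2 difference of -0.83 (standard error 0.17, limma adjusted p = 0.0157). The difference was -0.74 within slide 1 and -0.97 within slide 2. The call was lost without CSE replicate 1 (adjusted p = 0.0657 in limma), without CSE replicate 3 (0.0651), and with scaling to the 75th percentile (0.172). In ESCs, at 4.78 and 4.68, Epyc was not well above background. Otospheres were at least 701.8-fold higher (limma, adjusted p = 5.20e-08) and CSE at least 1250-fold (limma, adjusted p = 8.66e-08). Raw intensities were 36 and 40 in ESCs, 18530 to 51224 in otospheres and 36303 to 50928 in CSE.

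Ogn encodes osteoglycin, also called mimecan, a collagen-binding protein of bone and connective tissue. Its signal was 11.15 in OS1+OS2, 11.27 in OS3, 12.22 in OS4+OS5 and 11.48 in OS6, and 13.28, 13.13 and 12.73 in CSE. Otospheres and CSE did not overlap, and both lay far above the 4.96 and 5.50 of the ESC arrays, which were at background. Otospheres were 2.86-fold lower than CSE, a log2 difference of -1.52 (standard error 0.28, limma adjusted p = 0.00987). Within slide 1 the difference was -1.99 and within slide 2 it was -0.89 (unadjusted p of the slide difference 0.0481, adjusted p = 0.822 in limma). The call was lost without CSE replicate 1 (adjusted p = 0.0522 in limma) and with scaling to the 75th percentile (0.226). Against ESCs, Ogn was at least 70.9-fold higher in otospheres (limma, adjusted p = 4.21e-06) and at least 202.8-fold higher in CSE (limma, adjusted p = 1.72e-06). These bounds too leave out the spread between samples. The 95% intervals of the log2 differences ran from 5.57 to 7.03 for otospheres and from 7.04 to 8.59 for CSE.

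In terms of order, CSE was above otospheres and otospheres above ESCs for Epyc and Ogn, with both steps past the threshold. For Lum and Dcn the step between CSE and otospheres did not pass it. For Fmod the step between otospheres and ESCs, -0.25, did not pass it (limma, adjusted p = 0.526). Aspn and Omd were at background in both otospheres and ESCs, which gives no order between these groups.

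Neighbouring genes on a chromosome did not share 1 pattern. In the group on chromosome 10, Dcn, Lum and Epyc exceeded ESCs by 8.87 to 10.94 in CSE, whereas Kera, which lies between Lum and Epyc, exceeded them by 0.36 (limma, adjusted p = 0.145). On chromosome 13, Ogn exceeded ESCs by 6.30 in otospheres, where its neighbours Omd and Aspn were at background in both groups. In CSE the differences were 7.82 for Ogn, 0.81 for Omd, 1.44 for Aspn and 1.03 for Ecm2 (limma, adjusted p = 0.0302), whose call was lost in 6 alternatives. Differences of probes at background depend on the normexp offset and can understate the change.

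**Figure D2:**
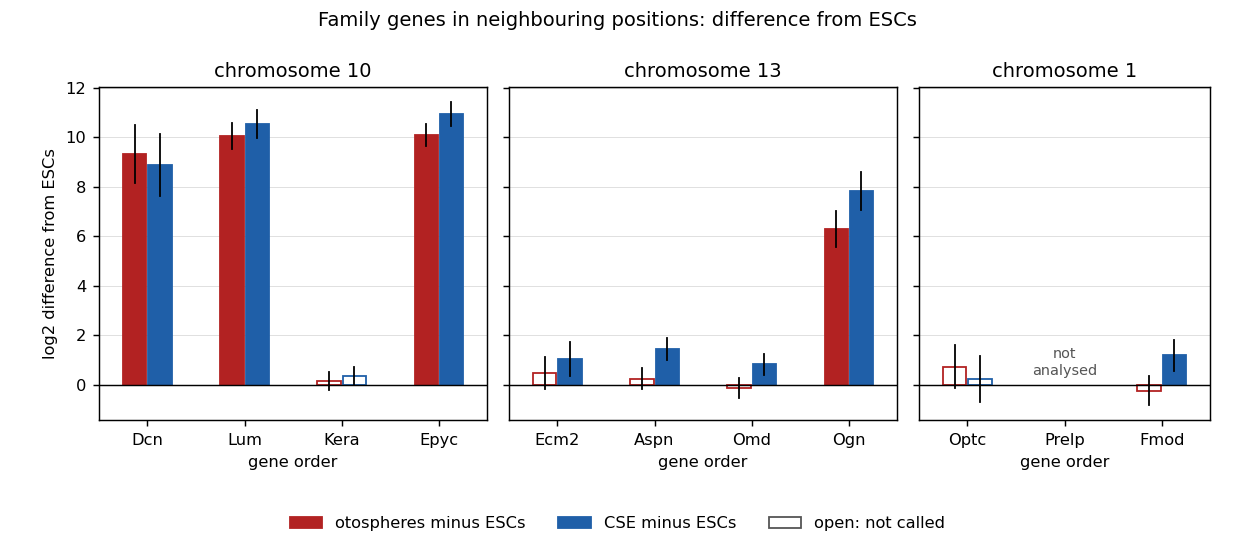
Log2 difference from ESCs (y axis, with the 95% interval of the limma fit as black lines) for family genes in their order on chromosomes 10, 13 and 1, for otospheres (red) and CSE (blue), with open bars for differences that did not pass the threshold of 0.05. Kera stays near 0 between Lum and Epyc, and Ogn stands above Ecm2, Aspn and Omd.

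Of 8 further genes of the family, all of which had a kept probe, 2 were lower in otospheres relative to CSE and 0 were higher. Over all 18565 named genes, 10.3% were lower and 7.17% higher. Podn encodes podocan, a class V member that binds type I collagen. It was 12.46, 12.05 and 12.99 in CSE, 7.86, 7.56, 7.61 and 7.48 in otospheres and 7.06 and 6.67 in ESCs. Otospheres were 29.3-fold lower than CSE, a log2 difference of -4.87 (standard error 0.24, limma adjusted p = 1.68e-05), and exceeded ESCs by 0.76, which did not pass the test (limma, adjusted p = 0.0652) but passed it in 3 alternatives, with adjusted p from 0.0330 to 0.0393. Among the 17 family genes with a probe, Podn had the largest difference between otospheres and CSE in this fit.

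Chadl encodes a relative of chondroadherin and had 2 probes. The first was 16.58, 16.49 and 16.89 in CSE, 14.41, 14.47, 15.05 and 14.64 in otospheres, and 10.40 and 8.97 in ESCs. It was 4.04-fold lower in otospheres than in CSE, a log2 difference of -2.01 (standard error 0.33, limma adjusted p = 0.00483), and 4.95 higher in otospheres than in ESCs (limma, adjusted p = 3.10e-05). The second, dimmer probe gave the same direction with a smaller difference of -0.74 (limma, adjusted p = 0.0184), and its difference of 0.34 between otospheres and ESCs did not pass the test (limma, adjusted p = 0.211). Optc, which encodes opticin of the vitreous of the eye, was well above background only on the arrays OS4 to OS6, with 6.35 in OS4+OS5 and 6.22 in OS6, against 5.28 and 5.02 in the other otosphere samples and 5.03 to 5.44 in CSE. Its difference between otospheres and CSE did not pass the test (limma, adjusted p = 0.484).

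Ecm2, Chad (chondroadherin, an integrin-binding protein of cartilage), Nyx (nyctalopin of the retina), Tsku (Tsukushi, an inhibitor of BMP signalling) and Podnl1 had differences between otospheres and CSE of -0.57, -0.19, -0.40, -0.08 and -0.15, none of which passed the test. Chad was 6.79 to 7.42 in otospheres and 6.85 to 7.81 in CSE, and the groups overlapped. For Nyx the groups did not overlap, with 5.08 to 5.49 in otospheres and 5.59 to 5.76 in CSE, and otospheres minus ESCs was -0.69 (limma, adjusted p = 0.0369), a call that 7 of the alternatives lost.

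**Figure D3:**
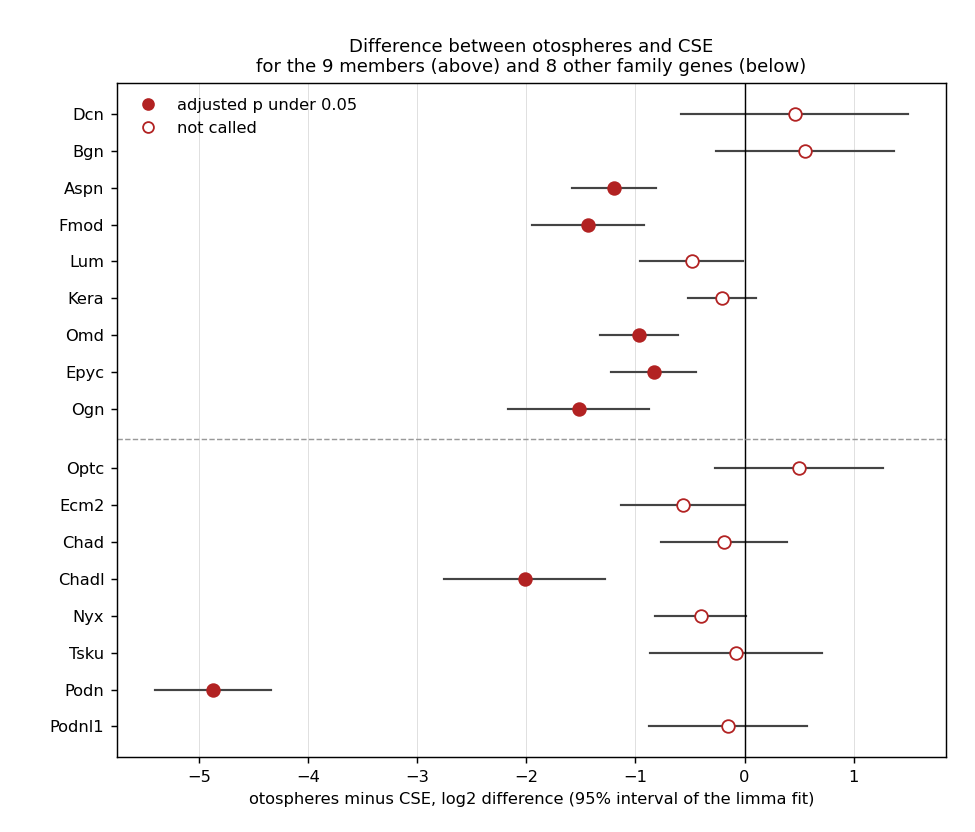
Log2 difference between otospheres and CSE (x axis, points) with the 95% interval of the limma fit (lines) for the 9 members and 8 other genes of the family, with filled points for an adjusted p under 0.05. The 5 members called and both other genes called, Podn and Chadl, lie below 0.

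The 4 otosphere samples differed among themselves, and the members took part in this unequally. The range over the otosphere samples was 0.51 for Epyc, 0.85 for Lum, 1.06 for Ogn, 1.30 for Bgn and 1.62 for Dcn on the log2 scale, against a median of 0.64 over all named genes. For the fibrillar collagens Col1a1, Col1a2 and Col3a1 it was 3.63, 7.28 and 9.08. Col1a2 and Col3a1, named after their values were seen, encode chains of type I and type III collagen, the partners of decorin and lumican in connective tissue. Col3a1 was 13.96 in OS1+OS2, 15.59 in OS3, 11.82 in OS4+OS5 and 6.51 in OS6, and 14.11 to 14.94 in CSE. In OS6, Col3a1 lay between the 6.12 and 7.16 of the ESC samples, whereas Dcn in OS6 was 15.51 and Lum 15.05, close to or within the CSE range. Some other collagens of the list had ranges like those of the members, 0.97 for Col11a1, 1.46 for Col5a1 and 1.67 for Col11a2. The remaining ones had wider ranges, 2.18 for Col14a1, 3.60 for Col2a1 and 3.80 for Col5a2. Col2a1 ran the other way, with 13.48 in OS1+OS2 and 12.59 in OS3, but 15.94 in OS4+OS5 and 16.19 in OS6.

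A list of 14 markers of mesenchyme and fibroblasts, which holds these 3 collagens, also differed between the otosphere samples. Its mean signal, centred for each gene over the 9 samples, was 0.90 in OS1+OS2, 1.50 in OS3, -0.21 in OS4+OS5 and -2.64 in OS6, against 1.19 to 1.89 in CSE and -2.16 to -1.88 in ESCs. Dcn was highest in OS3, where the list was highest, but OS6, with the lowest value of the list, did not have the lowest Dcn. Bgn was higher in both samples of slide 1, as was the list. The part of these markers in the differences of the members was not tested. In CSE, all 14 markers were well above background on all 3 arrays. Pdgfrb and Tbx18, named after their values were seen, were 5.58 and 5.47 in OS6, against 6.52 and 6.76 for Pdgfrb and 5.42 and 4.92 for Tbx18 in the ESC samples. Not every marker of the list was this low in OS6. Postn, also named after its values were seen, was 9.99 there, against 4.98 and 5.78 in the ESC samples. Thy1 was 12.76 in OS6, above the 8.35 to 9.67 of CSE.

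**Figure D4:**
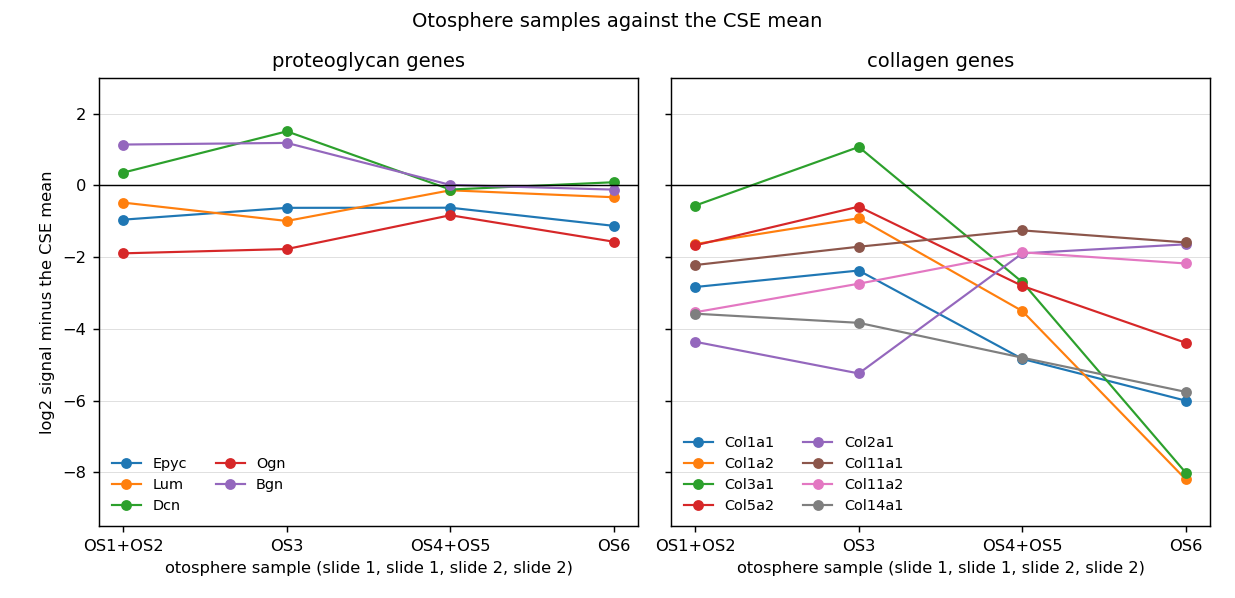
Log2 signal of each otosphere sample minus the mean of the 3 CSE samples (y axis) for 5 proteoglycan genes (left) and 8 collagen genes (right), with lines joining the samples of a gene only as a guide. The proteoglycan genes stay within 2 of the CSE mean in all 4 samples, whereas Col1a2 and Col3a1 fall to about -8 in OS6.

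The partners of the family were described by lists. Of 9 fibrillar and fibril-associated collagens with a kept probe, 5 were lower and 0 higher in otospheres compared with CSE, and the median was -2.58. Over all 18565 named genes, the background of this list and of those below, 7.17% were higher and 10.3% lower, with a median of -0.01. The fibril-associated collagen Col14a1 had a difference of -4.49 (limma, adjusted p = 6.04e-04), Col1a1 of -4.01 (limma, adjusted p = 0.0140) and Col2a1, the collagen of cartilage and of the tectorial membrane, of -3.28 (limma, adjusted p = 0.0366). Without CSE replicate 1 or 2, 3 of the collagens were called. Against ESCs, 5 were higher in otospheres and 8 in CSE, where the shares over all named genes were 18.4% and 20.9%. The limit given for the members holds here too, since Col5a2 and Col14a1 were well above background on 0 ESC arrays. These counts support nothing by themselves.

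Of 30 genes for the synthesis of chondroitin, dermatan and keratan sulfate chains, otospheres had 3 higher and 6 lower relative to CSE, and the median was -0.02. Those with the largest rises were Chst5, a sulfotransferase of keratan sulfate (2.93, limma adjusted p = 8.92e-04), the sulfate transporter gene Slc26a2 (1.55, adjusted p = 0.00558) and Fam20b, the kinase of the linker xylose (1.43, adjusted p = 0.0234). Those with the largest falls were Chsy1, which extends chondroitin chains (-2.21, limma adjusted p = 0.0102), the chondroitin 6-O-sulfotransferase gene Chst3 (-2.18, adjusted p = 0.00151) and Ust, the uronyl 2-O-sulfotransferase (-1.70, adjusted p = 0.00607). These genes moved in both directions.

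Among 17 genes for collagen maturation, 4 were higher and 1 lower in otospheres. Loxl4 and Lox, which encode enzymes that cross-link collagen, rose, Loxl4 at least 27.9-fold (limma, adjusted p = 1.09e-04) and Lox by 2.56 (limma, adjusted p = 0.0427), as did the lysyl hydroxylase gene Plod2 (1.75, adjusted p = 0.00501). Pcolce2, an enhancer of procollagen cleavage, had a difference of -4.78 (limma, adjusted p = 0.00276), and its relative Pcolce one of 1.37 (limma, adjusted p = 0.00134). With every array as a separate sample, 8 of these genes were called.

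Of 17 ligands and receptors known to bind members of the family, 7 were higher and 1 lower in otospheres, with a median of 0.46. The largest rises were those of Ccn2, a matricellular growth factor bound by decorin (3.58, limma adjusted p = 0.0305), Tlr4, a receptor of biglycan (2.13, adjusted p = 0.00193) and Met, a receptor of decorin (1.72, adjusted p = 0.00714). Bmp4, a growth factor bound by biglycan, fell, with a difference of -4.11 (limma, adjusted p = 3.19e-05). Without OS4+OS5, without CSE replicate 2 and in the deposited log2 table, 5 of the 17 were called. Of 11 proteases that cleave the family, only Adamts1 was called higher (1.47, limma adjusted p = 0.0439), and the list had a median of 1.16. Over the alternatives, 0 to 8 of these proteases were called.

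**Figure D5:**
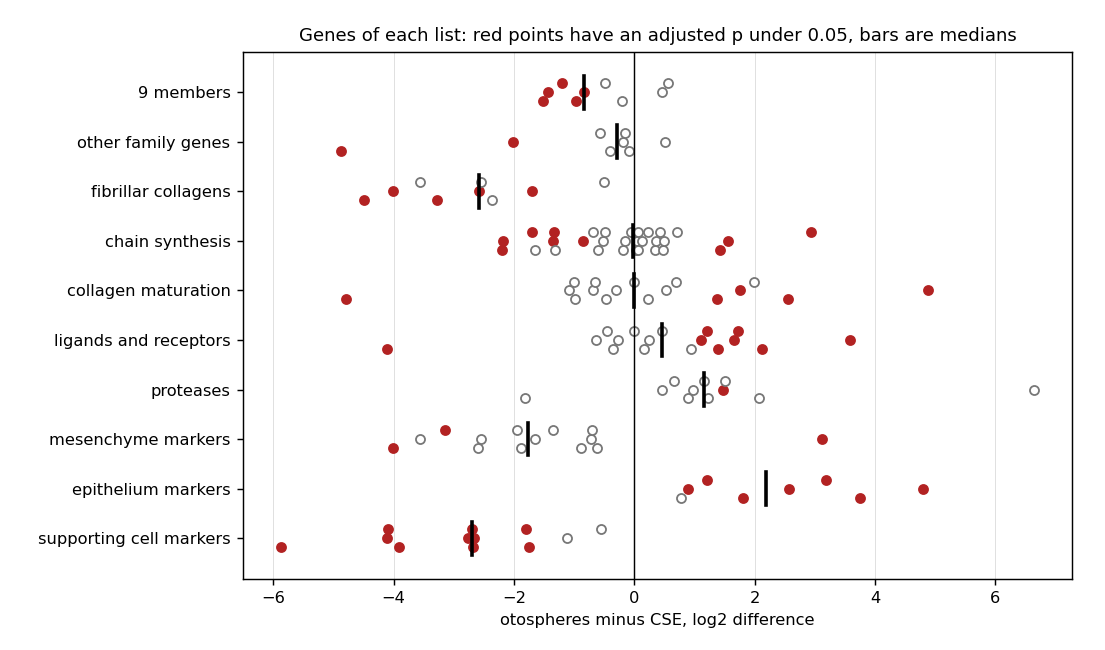
Log2 difference between otospheres and CSE (x axis) for every measured gene of 10 lists, with red points for an adjusted p under 0.05 in limma and a black bar for the median of each list. The collagens and the supporting cell markers lie mostly below 0, the epithelium markers above 0, and the chain synthesis genes on both sides.

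Markers of cell types were set beside the members in the same way. Of 12 markers of supporting cells and Koelliker's organ, 10 were lower and 0 higher in otospheres relative to CSE (median -2.69), led by Tectb (-5.88, limma adjusted p = 0.00234), Gjb6 (-4.11, adjusted p = 8.74e-04) and Otog (-4.10, adjusted p = 6.00e-04). Of 8 epithelial markers, 7 were higher in otospheres, led by Krt8 (4.79, limma adjusted p = 0.00135), Krt18 (3.75, adjusted p = 8.14e-04) and Cldn6 (3.19, adjusted p = 0.00124). Of the 14 mesenchymal markers, Thy1 was higher (3.12, adjusted p = 0.00709), Col1a1 and Twist2 were lower (Twist2 by a difference of -3.15, adjusted p = 0.0288), and 11 did not pass the test. In the remaining lists, 5 of 10 hair cell markers, 5 of 8 endothelial and 4 of 7 macrophage markers were lower in otospheres, 0, 0 and 1 higher. Of 8 glial markers 4 were lower and 1 higher, of 6 melanocyte markers 2 were lower, and of 9 markers of bone and cartilage 1 was lower, which is near the share of all named genes. Of 8 pluripotency markers, 7 were lower in otospheres and in CSE than in ESCs, against 20.4% and 20% of all named genes. The part of these cell types in the members' values was not tested.

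Among 18553 other named genes, those with the pattern most like Epyc over the 9 samples were Nfix (Pearson's r = 0.998) and Tbx2 (r = 0.997). Cpxm2 (r = 0.997) was among those most like Lum, and the most alike were for Dcn Naxd (r = 0.996) and Mindy2 (r = 0.994), and for Ogn Col11a1 (r = 0.996) and Lrrc4c (r = 0.995). Col11a1, a minor fibrillar collagen, was 13.40 ± 0.18 (SD, n = 3) in CSE, 11.71 ± 0.40 (SD, n = 4) in otospheres and 5.72 in ESCs. For Omd, Higd1b (r = 0.988) and Cfap161 (r = 0.985) were the most alike. These are descriptions with the same 9 samples as points, which share arrays and normalization.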

How the data were processed

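RNA of otospheres, CSE and ESCs had been labelled with Cy3 and hybridized to 11 single-colour Agilent arrays. The deposited scanner files, made with Feature Extraction 10.7.3.1, give for every spot a median intensity and the median intensity of the background around it, on a linear scale and without scaling between arrays. A processed intensity, from which the software had subtracted the background, and 0 or 1 flags of each spot stand beside them. The authors' own log2 values (43657 probes), background-corrected and quantile-normalized with limma, served as an alternative. Gene names come from the transcript accession of each probe and the RefSeq gene table of GRCm38.p6, which named 26762 of 55681 probes. The array design gives positions on another build, so no probe position is printed.

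Median intensities were corrected by normexp in limma 3.58.1 (R 4.3.3) with an offset of 16, since the sources do not name a method, then log2-transformed and brought to the same quantiles on all 11 arrays. Control spots and outlier spots were dropped, and replicate spots averaged. A probe counts as well above background on an array when most of its spots carry the flag. A probe was kept (47997 were) if its linear signal exceeded the 95th percentile of the 308 negative control spots by 10% or more on 2 arrays. The methods of the study ask for 3 arrays, and 2 were used because there are 2 ESC arrays. Median intensity was 68 to 116 per array over a background of 32 to 38, and the number of arrays limits the precision. Over 17210 bright probes (mean log2 signal over 8), the ratio of the spread between arrays to that between spots was 0.848 for OS1 with OS2 and 0.377 for OS4 with OS5, while the other 17 pairs within groups had at least 1.60. Each of these 2 pairs was therefore averaged.

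Groups were compared with limma (group means, empirical Bayes, Benjamini-Hochberg over all kept probes), tested on simulated data first. A slide interaction was fitted in the same way. A gene's value is its brightest kept probe. The members, the gene lists and the tests were chosen with earlier results of these data known. Named are all members and other family genes, of each other list at most 3 called genes in each direction with the largest differences between otospheres and CSE, and the 2 genes most correlated with Epyc, Dcn, Lum, Ogn and Omd, 1 of which is not reported here. Exceptions are named as such, and Pcolce is another, chosen after its values were seen. Alternatives were the offset, the scaling, the deposited table, the filter, every array as a sample, slide or replicate number as a block, and each sample left out.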

Additional observations from a re-analysis of the deposited data

How the results depend on the processing

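Of the results for single family genes, those past the threshold stayed past it in 392 combinations of result and alternative, lost it in 22 and reversed in 0, and those not past it stayed so in 475, passed it in 18 and changed sign in 11. The count of members called between otospheres and CSE was 5, and 3 to 5 with a sample left out (3 without CSE replicate 1). Against ESCs it was 4 in every such case for otospheres and 6 to 7 for CSE. With a sample left out, the called collagens numbered 3 to 6, collagen maturation genes 4 to 7, ligands and receptors 5 to 9, and proteases 0 to 2. The other lists stayed within 2 for the other family genes and 7 to 10 for chain synthesis. For the proteases, 1 in the main setting, the count was 0 with an offset of 50 and without a filter, and 2 with every array as a separate sample. Collagen maturation genes numbered 8 in that last setting, and ligands and receptors 5 in the deposited table. The cause was not tested.

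Replicate numbers were not taken as pairs in the main fit. The correlation of deviations from the group means between same-numbered otosphere and CSE arrays was 0.36, -0.34 and -0.39. These values cannot decide whether the numbers pair samples, since OS1 and OS2 differed by less than the noise between spots. With a replicate block and every array as a separate sample, 4 members were called lower and 1 higher in otospheres than CSE, 5 higher in otospheres than ESCs and 6 higher in CSE than ESCs, and 8 proteases were called. Under it Epyc between otospheres and CSE had an adjusted p of 0.0596 in limma, Omd between CSE and ESCs 0.0617, Bgn passed the threshold at 1.15 against CSE (0.0366) and 1.23 against ESCs (0.0269), and Optc was -0.0228 between otospheres and CSE.

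Scaling to the 75th percentile moved the median of all probes to -0.28 for otospheres minus ESCs and -0.25 for CSE minus ESCs, from -0.03 and -0.06. In that setting Bgn was -0.0855 and Optc -0.0929 in CSE minus ESCs and Aspn -0.15 in otospheres minus ESCs. Kera passed the threshold there in CSE minus ESCs (1.32; limma, adjusted p = 0.0109). With a sample left out, Bgn ran from -0.0759 (without ESC replicate 2) to 0.32 in CSE minus ESCs. The difference of Tsku between otospheres and CSE was 0.0011 with the slide as a block, and 0.23 with the replicate block, and with a sample left out it ran from -0.28 (without OS1+OS2) to 0.0899 (without CSE replicate 1), with -0.20 without CSE replicate 2, 0.0183 without OS3 and 0.0221 without OS4+OS5. That of Chad ran from -0.46 to 0.017 (without CSE replicate 3). The mean over all kept probes of a gene was not run, since each member has 1 probe. Epyc, Lum and Ogn in ESCs, and Omd and Aspn outside CSE, were limited by the background.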
